A study of Homo sapiens with 8 samples.

Results

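GSDMD, the caspase genes CASP1, CASP2, CASP4, CASP6, CASP8 and CASP9, the adaptor gene PYCARD and the sensor gene NLRP1 are described here in K562 cells in which the transcription factor IRF2 was repressed. These 9 genes were taken by symbol from a table of 35805 genes. GSDMD is on the list because it is a known IRF2 target in other cells. Genes were tested if their deposited log2 values averaged 0 or more, which kept 14665 genes, among them 7 of the 9. CASP1 and CASP4 were below the filter.

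K562 is a line from a chronic myeloid leukaemia that resembles erythroid precursors. All groups carried dCas9-KRAB, in which a Cas9 that cannot cut DNA is joined to the KRAB repressor and silences the promoter to which a guide RNA brings it. The 4 groups were untransduced cells (dCas9-KRAB and no guide), cells with sgAAVS1, the negative control guide, to the AAVS1 site, and cells with sg1-IRF2 or with sg2-IRF2, independent guides to IRF2. Each group had 2 libraries, and RNA of the cells with a guide was taken 7 days after transduction. The labels do not say whether the dCas9-KRAB line was 1 clone or a mixed population, nor whether replicates were grown as separate cultures. P-values measure only the spread between these libraries, which may be technical.

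The libraries held 5248359 to 6738348 reads over the listed genes. Chi-square per degree of freedom between replicates was 1.66 with sgAAVS1 and 0.659 to 0.820 in the other groups, where counting noise alone gives 1. Pairs in 3 groups thus differed by less than that noise, and whether such a pair is 1 library sequenced again was not tested. All 8 were treated as separate replicates, and if they are not, the p-values are too small. Across groups, chi-square per degree of freedom was 1.12 to 1.31 for untransduced with sg2-IRF2 libraries and 1.11 to 1.70 for sgAAVS1 with sg1-IRF2 libraries, against 1.93 to 2.12 for untransduced with sgAAVS1 libraries. The libraries thus also split in a way that does not follow the guides to IRF2. That split was not clean, since sg1-IRF2 with sg2-IRF2 libraries had 1.27 to 1.55. The remaining pairs of groups had 1.70 to 2.345 (sgAAVS1 with sg2-IRF2) and 1.91 to 1.97 (untransduced with sg1-IRF2). All 12 erythroid markers passed the filter. Of 9 monocyte and macrophage markers 4 passed, with S100A8 and S100A9 without a read, and of 7 lymphoid markers 2 passed, with CD2 and MS4A1 without a read. Of 9 adherent epithelial and fibroblast markers 7 passed. In bulk RNA, fewer cells that express a gene and less RNA per cell cannot be told apart.

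Inflammasomes are protein complexes that assemble when a sensor such as NLRP1 detects damage or infection. Sensors recruit caspase-1, often through the adaptor ASC, which PYCARD encodes, while caspase-4 binds bacterial lipopolysaccharide in the cytosol. Both caspases cut gasdermin D, the product of GSDMD, whose freed N-terminal part forms pores in the plasma membrane and causes the lytic death called pyroptosis. Caspase-2, caspase-8 and caspase-9 start apoptosis, and caspase-6 is among the caspases that act downstream of them. IRF2 binds interferon response elements, in which copies of GAAA are spaced closely.

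Promoters were read from RefSeq (GRCh38.p14, 250 bases before to 50 bases after a gene's start). This gave 10 windows for 6 of the genes: CASP2, CASP4, CASP6, CASP8, CASP9 and PYCARD. GSDMD, CASP1 and NLRP1 had no window there and were not searched. Both strands were searched for GAAANNGAAA and for GAAANNNGAAA, 2 spacings of the GAAA core, which can overlap each other. These letters were found in 3.57% and in 2.86% of 35116 promoters of the same length. The windows with a match are shown, since they are the members' windows that hold the core of the element. CASP4 had GAAANNNGAAA, beginning 229 bases before the start (chr11:104968525-104968824, minus strand). CASP8 had GAAANNGAAA on the opposite strand to the gene, beginning 3 bases before the start, in 1 of its 3 windows (chr2:201233213-201233512, plus strand). Capitals mark the match, and each sequence runs 5′ to 3′ along the gene.
CASP4: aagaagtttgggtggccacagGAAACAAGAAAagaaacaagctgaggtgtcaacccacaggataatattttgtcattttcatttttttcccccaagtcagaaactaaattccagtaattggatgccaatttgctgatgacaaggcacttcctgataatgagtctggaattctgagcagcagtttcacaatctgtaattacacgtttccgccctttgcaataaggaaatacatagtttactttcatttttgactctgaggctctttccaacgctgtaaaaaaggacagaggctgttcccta
CASP8: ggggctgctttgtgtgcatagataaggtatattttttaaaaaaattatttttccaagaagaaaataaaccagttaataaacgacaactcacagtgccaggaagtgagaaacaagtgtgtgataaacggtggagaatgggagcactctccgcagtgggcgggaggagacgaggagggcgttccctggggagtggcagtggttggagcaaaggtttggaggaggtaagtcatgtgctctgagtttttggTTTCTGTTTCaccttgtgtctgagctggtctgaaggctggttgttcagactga
A match is a description of letters and no evidence of binding, and the other 8 windows held neither spelling.

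IRF2 itself, the targeted gene, had deposited log2 values of 5.58 and 5.61 (untransduced), 5.44 and 5.63 (sgAAVS1), -0.30 and 0.58 (sg1-IRF2), and 1.90 and 1.92 (sg2-IRF2). Both guides together left it 22.8-fold lower than sgAAVS1, a log2 difference of -4.51 ± 0.18 (SE, adjusted p = 2.5e-16, limma). Read counts were 12 over the 2 sg1-IRF2 libraries and 43 over the 2 sg2-IRF2 libraries, against 487 with sgAAVS1.

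GSDMD RNA, which encodes the pore-forming protein of pyroptosis, was lower in the cells with guides to IRF2. The gene lies at chr8:143553207-143563062 on the plus strand (hg38). Its deposited log2 values were 3.28 and 3.63 (untransduced), 3.35 and 3.35 (sgAAVS1), 2.61 and 2.16 (sg1-IRF2), and 2.40 and 2.98 (sg2-IRF2). All 4 libraries with a guide to IRF2 lay below all 4 control libraries, and the libraries of the IRF2 guides overlapped one another. GSDMD was the 1 of the 7 tested genes without such overlap between the sides. Over all tested genes, 2.74% had the 4 guide libraries all below or all above the 4 controls.

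These values rest on few reads. GSDMD had 55 and 68 reads (untransduced), 46 and 60 (sgAAVS1), 30 and 24 (sg1-IRF2), and 31 and 44 (sg2-IRF2). Scaled to library totals, sgAAVS1 had 1.99 times the reads of sg1-IRF2 (95% interval 1.42 to 2.81, counting error only) and 1.48 times those of sg2-IRF2 (1.09 to 2.02). Untransduced cells had 2.19 times the reads of sg1-IRF2 (1.58 to 3.08) and 1.63 times those of sg2-IRF2 (1.22 to 2.21). All 4 intervals lay above 1. Levels are given as RPKM, reads per exonic kilobase per 1000000 reads over the listed genes. The mean RPKM of GSDMD fell from 1.73 ± 0.019 with sgAAVS1 to 0.877 ± 0.20 with sg1-IRF2, and was 1.17 ± 0.33 with sg2-IRF2 (SD, n = 2).

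With both IRF2 guides, GSDMD fell by 0.81 ± 0.19 on the log2 scale against sgAAVS1 (1.75-fold lower, 95% interval of the log2 difference -1.20 to -0.42, adjusted p = 0.0228, limma). It was the only one of the 7 tested genes called in this comparison, in which 1.59% of all tested genes were called. The median log2 difference was -0.05 over the 7 and -0.02 over all 14665. Against untransduced cells GSDMD fell by 0.91 ± 0.19 (adjusted p = 0.0058), again the only 1 of the 7, where 2.5% of tested genes were called. The comparisons with sgAAVS1 and with untransduced cells share the guide libraries.

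With sg1-IRF2 alone GSDMD fell by 0.96 ± 0.22 against sgAAVS1 (adjusted p = 0.0254). It was again the 1 gene of the 7 called, against 0.825% of all tested genes. With sg2-IRF2 the difference was -0.66 ± 0.22 and missed the threshold (adjusted p = 0.0635). The guides themselves differed by -0.31 ± 0.22 in GSDMD, sg1-IRF2 minus sg2-IRF2 (adjusted p = 0.348), so a difference between them was not shown at this depth. The controls differed by -0.10 ± 0.22, sgAAVS1 minus untransduced (adjusted p = 0.862). Between the controls 0 of the 7 genes were called by limma and by voom, 1 had an unadjusted p under the threshold (CASP2), and 4.75% of all tested genes were called. An unadjusted p under the threshold was found there for 2791 of all 14665 tested genes.

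The direction for GSDMD against sgAAVS1 was lower under 19 of 19 other settings, but the call stood in 9 of them, with adjusted p from 7.9e-04 to 0.340. It was lost without untransduced replicate 1 (adjusted p = 0.0530) or 2 (0.0573), sgAAVS1 replicate 1 (0.0535) or 2 (0.0512), sg1-IRF2 replicate 2 (0.0724) or sg2-IRF2 replicate 1 (0.104), each by limma. Against untransduced cells it was lost without untransduced replicate 1 (0.0557) or 2 (0.280), and for sg1-IRF2 without untransduced replicate 1 (0.0678) or 2 (0.0748) or sg1-IRF2 replicate 2 (0.444), again by limma. The sg1-IRF2 call was also lost by voom (adjusted p = 0.0723), under array weights (0.0738) and without the mean-variance trend (0.427). Fitting the replicate number as a block lost that call as well, with the value given in the last section. Monocyte and macrophage markers summed to an RPKM of 64.0 to 68.3 in the control libraries and 65.4 to 69.2 in the guide libraries. Erythroid markers summed to 639 to 744 and 661 to 703, lymphoid markers to 38.7 to 44.0 and 40.3 to 43.5, and adherent markers to 196 to 221 and 201 to 213. The most abundant genes set these sums, which can hardly show a change in scarce markers such as COL1A1 (mean 3.5) or COL1A2 (1.0). Whether the make-up of the cells changed was not tested. Of the single markers, COL1A1 (-0.32 ± 0.08, adjusted p = 0.0327) was called against sgAAVS1, and COL1A2 (-0.86 ± 0.16, adjusted p = 0.0013) and ALAS2 (0.31 ± 0.06, adjusted p = 0.0014) against untransduced cells, all by limma, and their part in the GSDMD result was not tested.

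**Figure D1:**
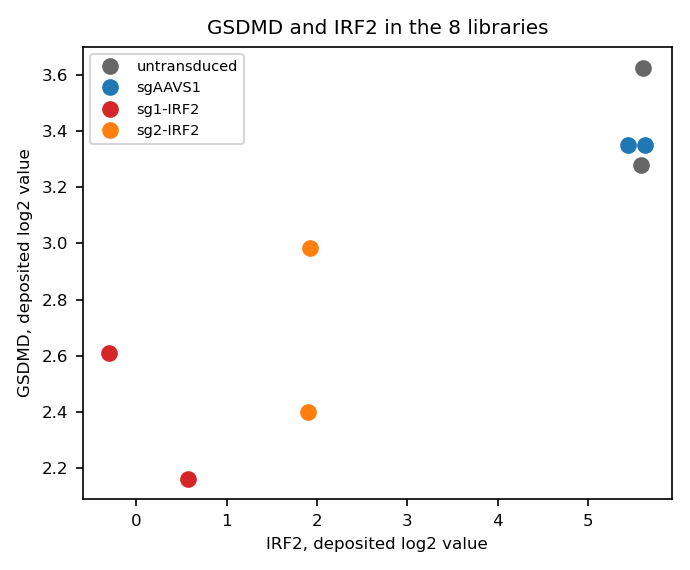
Deposited log2 value of GSDMD against that of IRF2, 1 point per library, coloured by group. The 4 control libraries sit at IRF2 values of 5.44 to 5.63 and GSDMD values of 3.28 to 3.63, and the 4 guide libraries lie lower on both axes.

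**Figure D2:**
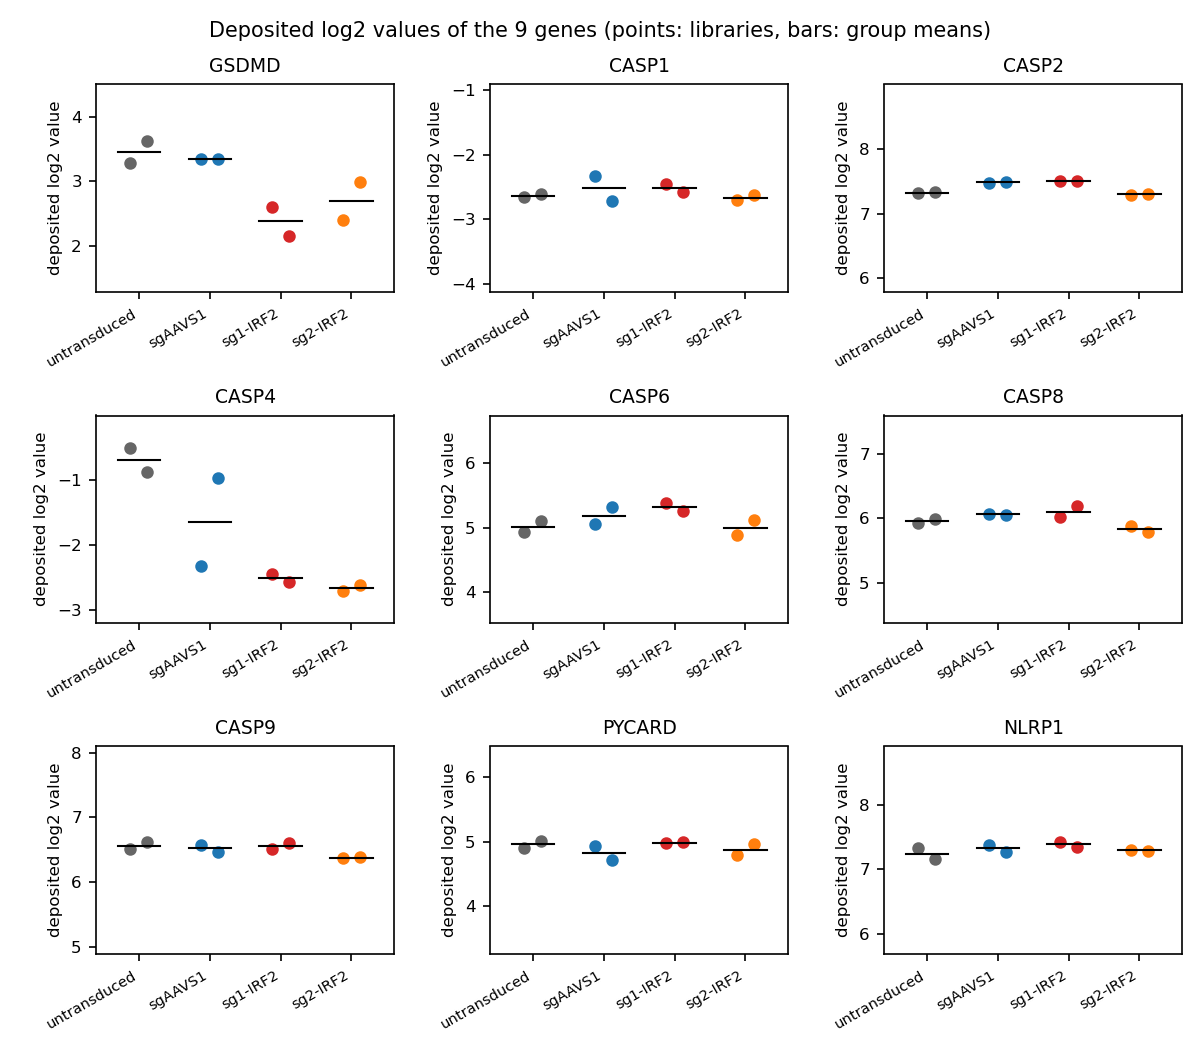
Deposited log2 values of the 9 genes, 1 panel per gene with the same axis span, points for libraries and bars for the means of 2. GSDMD is stepped down in the guide groups, and the CASP1 panel shows only the value given to genes without reads, which differs between libraries.

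The inflammatory caspases that cut gasdermin D were at or near the detection limit. CASP1 (chr11:105025443-105035250, minus strand) had 0 reads in all 8 libraries, which allows an RPKM of up to 0.0164 over all libraries (3 reads of 49316908). CASP4 (chr11:104942866-104969436, minus strand) had 4 and 3 reads in untransduced cells, 0 and 3 with sgAAVS1, and 0 in each of the 4 libraries with guides to IRF2. The reads thus came from 3 of the 4 control libraries, 10 in all. How many other genes had reads in control libraries only was not counted. For the 7 reads of untransduced cells against 0 with either guide, the exact 95% lower limit of the ratio, scaled to library totals, was 1.39 for sg1-IRF2 and 1.43 for sg2-IRF2 (counting error only). No fold is given against sgAAVS1, whose 3 reads are no more than a count of 0 allows. Without the filter, CASP4 had an adjusted p of 1.1e-04 against untransduced cells and 0.295 against sgAAVS1 (limma). In the first of these comparisons, 649 of all 35805 genes were called without the filter. Both CASP4 values depend on the 0.9 read at which the table lists a gene without reads. The CASP4 promoter window is the one shown above with GAAANNNGAAA, letters found in 2.86% of promoters. A link between that match and the CASP4 reads was not tested.

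NLRP1 (chr17:5499427-5619424, minus strand), the sensor, had log2 values of 7.32 and 7.17 (untransduced), 7.38 and 7.27 (sgAAVS1), 7.43 and 7.35 (sg1-IRF2), and 7.31 and 7.28 (sg2-IRF2). The 4 guide libraries overlapped the 4 control libraries. As deposited, both sg1-IRF2 libraries lay above the untransduced and the sg2-IRF2 libraries, an order not counted over all tested genes. In RPKM these groups overlapped, at 11.5 and 10.7 (sg1-IRF2), 11.3 and 11.0 (sg2-IRF2), and 11.2 and 9.78 (untransduced). The difference of both guides from sgAAVS1 was 0.01 ± 0.05 (95% interval -0.09 to 0.12, adjusted p = 0.952). Against untransduced cells it was 0.10 ± 0.05 (adjusted p = 0.392).

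PYCARD (chr16:31201485-31203450, minus strand), the adaptor ASC, had log2 values of 4.90 and 5.01 (untransduced), 4.94 and 4.72 (sgAAVS1), 4.97 and 4.99 (sg1-IRF2), and 4.79 and 4.96 (sg2-IRF2). The guide and control libraries overlapped here too. As deposited, both sg1-IRF2 libraries lay above the sgAAVS1 and the sg2-IRF2 libraries, an order not counted over all tested genes. In RPKM the sg1-IRF2 libraries (16.1 and 16.0) lay between those of sg2-IRF2 (15.2 and 17.0). Both guides differed from sgAAVS1 by 0.10 ± 0.09 (95% interval -0.08 to 0.28, adjusted p = 0.778) and from untransduced cells by -0.03 ± 0.09 (adjusted p = 0.937). Exons of the antisense gene PYCARD-AS1 cover 59.7% of the PYCARD exons, and with the strand setting of the count unknown, reads of the pair cannot be told apart.

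Among the initiator caspases, CASP2 (chr7:143288215-143307696, plus strand) had log2 values of 7.32 and 7.33 (untransduced), 7.47 and 7.49 (sgAAVS1), 7.50 and 7.50 (sg1-IRF2), and 7.29 and 7.31 (sg2-IRF2). The sgAAVS1 and sg1-IRF2 libraries were high, the untransduced and sg2-IRF2 libraries low, and these pairs of groups did not overlap. CASP2 and CASP8 were the 2 of the 7 genes with this split, which 18.4% of all tested genes showed in one direction or the other. Of those 2694 genes, 2405 were lower in the untransduced and sg2-IRF2 libraries, as CASP2 and CASP8 were. In RPKM the CASP8 split was gone, with sg1-IRF2 replicate 1 at 7.64 and untransduced replicate 2 at 7.65. CASP2 did not pass the test with both guides against sgAAVS1 (-0.08 ± 0.04, adjusted p = 0.492) or against untransduced cells (0.07 ± 0.04, adjusted p = 0.459).

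CASP8 (chr2:201233443-201287711, plus strand), the initiator of death receptor apoptosis, had log2 values of 5.93 and 5.99 (untransduced), 6.07 and 6.05 (sgAAVS1), 6.02 and 6.18 (sg1-IRF2), and 5.88 and 5.79 (sg2-IRF2). The sg2-IRF2 libraries were the lowest of the 8, an order not counted over all tested genes. They also had the lowest medians over all tested genes, at 5.55 and 5.54. Both guides differed from sgAAVS1 by -0.10 ± 0.06 (adjusted p = 0.644) and from untransduced cells by 0.01 ± 0.06 (adjusted p = 0.974). One of its promoter windows holds the GAAANNGAAA match shown above.

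CASP9 (chr1:15490832-15526534, minus strand), the caspase of the apoptosome, had log2 values of 6.51 and 6.62 (untransduced), 6.58 and 6.46 (sgAAVS1), 6.51 and 6.60 (sg1-IRF2), and 6.37 and 6.39 (sg2-IRF2). The sg2-IRF2 libraries again lay lowest, an order that was also not counted over all tested genes. The difference of both guides was -0.05 ± 0.05 from sgAAVS1 (adjusted p = 0.806) and -0.10 ± 0.05 from untransduced cells (adjusted p = 0.447). CASP6 (chr4:109688622-109703583, minus strand), an executioner caspase, had log2 values of 4.93 and 5.10, 5.06 and 5.32, 5.38 and 5.26, and 4.89 and 5.12 in untransduced, sgAAVS1, sg1-IRF2 and sg2-IRF2 cells. Both sg1-IRF2 libraries lay above the untransduced and the sg2-IRF2 libraries, and the sgAAVS1 libraries overlapped all 3 other groups. This order was not counted over all tested genes, whose median was itself 0.112 higher with sg1-IRF2 than with sg2-IRF2. Both guides differed from sgAAVS1 by -0.03 ± 0.09 (95% interval -0.21 to 0.16, adjusted p = 0.951) and from untransduced cells by 0.14 ± 0.09 (adjusted p = 0.530). Exons of the opposite-strand genes CELA2B and MCUB cover 2.0% of the CASP9 exons and 5.4% of the CASP6 exons.

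**Figure D3:**
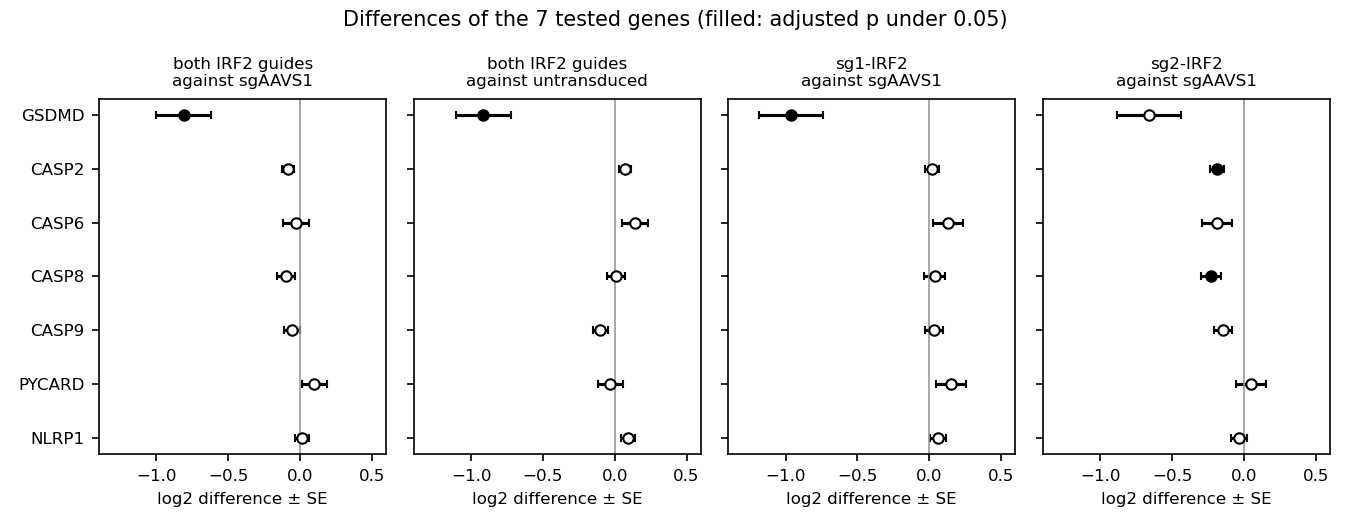
Log2 differences of the 7 tested genes with their standard errors in 4 comparisons, filled where the adjusted p was under 0.05. GSDMD lies at -0.81, -0.91, -0.96 and -0.66, while the other 6 genes lie between -0.23 and 0.15.

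The guides differed from each other in several caspase genes. In CASP2 and CASP8 the sg2-IRF2 libraries lay with the untransduced ones and the sg1-IRF2 libraries with sgAAVS1, the split of the libraries given above, whose part in these results was not tested. Between sg1-IRF2 and sg2-IRF2, 3 of the 7 genes were called, all higher with sg1-IRF2, against 13.3% of all tested genes. CASP6 was higher by 0.31 ± 0.10 on the log2 scale (adjusted p = 0.0459), CASP8 by 0.27 ± 0.07 (adjusted p = 0.0182) and CASP2 by 0.20 ± 0.05 (adjusted p = 0.0094). CASP9 (0.18 ± 0.06, adjusted p = 0.0630), PYCARD and NLRP1 (both 0.10) were not called. Against sgAAVS1, sg2-IRF2 gave 2 calls of 7, where 8.16% of tested genes were called: CASP8 fell by 0.23 ± 0.07 (adjusted p = 0.0482) and CASP2 by 0.18 ± 0.05 (adjusted p = 0.0177).

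These calls depend on scaling. The median of all tested genes itself differed by 0.112 between the guides, and 95.2% of the calls over all genes were higher with sg1-IRF2, against 37.2% once library medians were aligned. For sg2-IRF2 against sgAAVS1, the share of calls that were higher went from 12.9% to 52.6%. With medians aligned the guide difference was 0.20 for CASP6 (adjusted p = 0.415), 0.15 for CASP8 (adjusted p = 0.275) and 0.09 for CASP2 (adjusted p = 0.418), and -0.01 for PYCARD and -0.02 for NLRP1, so that the sign of those 2 turned. The sg2-IRF2 difference from sgAAVS1 was -0.15 for CASP8 (adjusted p = 0.216) and -0.11 for CASP2 (adjusted p = 0.240). With medians aligned, with quantile normalization and with voom, 0 of the 7 were called in either comparison. With the deposited scaling, 4 had an unadjusted p under the threshold in each. Of all 14665 tested genes, 4599 had one between the guides and 3457 for sg2-IRF2 against sgAAVS1.

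Single libraries also decided these calls (limma throughout). For the guide difference, CASP8 was lost without sg1-IRF2 replicate 2 (0.18, adjusted p = 0.271) and sg2-IRF2 replicate 1 (adjusted p = 0.0725) or 2 (adjusted p = 0.193). CASP2 was lost without any 1 of the 4 guide libraries (adjusted p = 0.0543 to 0.118), and CASP6 without any of those (adjusted p = 0.0785 to 0.388, the last with a difference of 0.20 without sg2-IRF2 replicate 1) or either untransduced library (0.0601 and 0.0613). CASP9 was called without sgAAVS1 replicate 1 (adjusted p = 0.0195) or 2 (0.0186). For sg2-IRF2 against sgAAVS1, CASP2 was lost without sg2-IRF2 replicate 1 (adjusted p = 0.188) or 2 (0.148), and CASP9 was called without sgAAVS1 replicate 2 (-0.20, adjusted p = 0.0444). CASP8 was lost there without sgAAVS1 replicate 1, sg1-IRF2 replicate 2 or any 1 of the untransduced or sg2-IRF2 libraries (adjusted p = 0.0507 to 0.361).

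**Figure D4:**
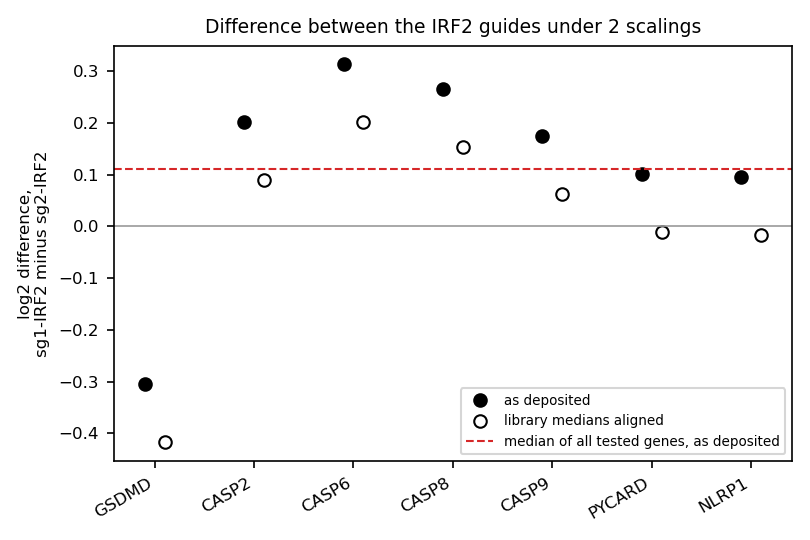
Log2 difference sg1-IRF2 minus sg2-IRF2 for the 7 tested genes, as deposited (filled) and with library medians aligned (open), with the median of all tested genes as a dashed line at 0.112. The caspases, PYCARD and NLRP1 move down by that median when the libraries are aligned, and GSDMD is below 0 under both scalings.

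On the RPKM scale, which corrects for length, the genes were ordered as follows over the 8 libraries. CASP2 was highest, with a mean of 18.5 (range 17.4 to 19.6). PYCARD (15.9, range 13.9 to 17.0), CASP6 (15.9, range 13.9 to 18.3) and CASP9 (15.1, range 14.3 to 16.2) overlapped one another, and CASP6 overlapped CASP2 as well. NLRP1 (10.9, range 9.78 to 11.5), CASP8 (7.70, range 6.95 to 8.42) and GSDMD (1.42, range 0.734 to 2.10) each lay apart from their neighbours in the order. CASP4, at a mean of 0.0268, and CASP1, at 0, closed it. The inflammatory caspase genes CASP1 and CASP4 were thus the least abundant of the 9, while CASP8, whose product can also cut gasdermin D, the adaptor and NLRP1 were several times above GSDMD.

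Other genes of these pathways were taken from 10 lists, of which 34 genes were tested. With both guides against sgAAVS1, 2 of the 34 were called, both lower, and 9 had an unadjusted p under the threshold. Of all 14665 tested genes, 1548 had such an unadjusted p. The median log2 difference was -0.05 over the 34 and -0.02 over all tested genes, of which 1.59% were called. Against untransduced cells 2 of the 34 were called, both lower, where 2.5% of all tested genes were.

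MLKL encodes the pore-forming effector of necroptosis, another lytic form of death. Its log2 values were 4.16 and 3.97 (untransduced), 4.41 and 4.41 (sgAAVS1), 3.73 and 4.04 (sg1-IRF2), and 3.78 and 3.75 (sg2-IRF2). MLKL fell by 0.59 ± 0.12 against sgAAVS1 (adjusted p = 0.0064), but the untransduced libraries overlapped the guide libraries, and the difference from them was -0.24 ± 0.12 (adjusted p = 0.392). The sgAAVS1 libraries were the highest of the 8 for this gene, an order not counted over all tested genes. Without the mean-variance trend the MLKL call against sgAAVS1 was lost (adjusted p = 0.155, limma).

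RIPK1, a kinase of death receptor signalling, fell by 0.22 ± 0.06 against sgAAVS1 (adjusted p = 0.0417) and differed by -0.10 ± 0.06 from untransduced cells (adjusted p = 0.448). The call was lost by limma with medians aligned (adjusted p = 0.0683), quantile normalization (0.0602) and array weights (0.0981). Voom (0.0658), a limma fit of only the compared groups (0.0871) and limma without the mean-variance trend (0.387) lost it too. The RIPK1 call was also lost without any 1 library except sgAAVS1 replicate 1 or sg1-IRF2 replicate 2, with a difference of -0.14 without sgAAVS1 replicate 2.

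IFI16, a nuclear DNA sensor, had 26 and 18 reads (untransduced), 8 and 14 (sgAAVS1), 6 and 13 (sg1-IRF2), and 7 and 7 (sg2-IRF2). IFI16 fell by 1.42 ± 0.37 against untransduced cells (adjusted p = 0.0325) and differed by -0.50 ± 0.37 from sgAAVS1 (adjusted p = 0.696). That call was lost without either untransduced library (adjusted p = 0.398 and 0.183), sg1-IRF2 replicate 1 (0.122) or either sg2-IRF2 library (0.0607 and 0.0506), without the filter on low values (0.182) and without the mean-variance trend (0.202). GBP2, an interferon-inducible guanylate binding protein, fell by 0.53 ± 0.09 against untransduced cells (adjusted p = 5.7e-04) and differed by -0.08 ± 0.09 from sgAAVS1 (adjusted p = 0.820). GBP2 was also lower by 0.44 ± 0.10 in sgAAVS1 than in untransduced cells (adjusted p = 0.0112). Its first call was lost without untransduced replicate 2, and without the mean-variance trend (adjusted p = 0.105, limma).

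The other genes of the lists were not called in either pooled comparison. With sg2-IRF2 alone against sgAAVS1, 7 of the 34 genes were called (6 lower and 1 higher), and between the guides 4 (all higher with sg1-IRF2), against 8.16% and 13.3% of all tested genes. Of 6 genes for gasdermins and membrane rupture 4 were tested. GSDME, listed under its older symbol DFNA5, is a gasdermin cut by caspase-3, and its difference from sgAAVS1 was 0.29 ± 0.09 with both guides (adjusted p = 0.103). With sg2-IRF2 alone it was higher by 0.38 ± 0.10 (adjusted p = 0.0191), and with medians aligned by 0.45 (adjusted p = 0.0069). By limma it was not called without the mean-variance trend (adjusted p = 0.107) or in a fit of only the compared groups (0.054). The call for DFNA5 was lost without sgAAVS1 replicate 1 (adjusted p = 0.0911) or sg2-IRF2 replicate 1 (0.188) or 2 (0.117). Of 5 cytokines 2 were tested, and IL18, a substrate of caspase-1, differed by -0.25 ± 0.13 (adjusted p = 0.529), while IL1B, IL33 and IL37 had no reads. Of the other apoptotic caspases 3 of 4 were tested, with CASP10 at 0.05 ± 0.05 (adjusted p = 0.776). All 8 genes of the apoptosome and caspase inhibitors were tested, and XIAP, which inhibits caspases directly, differed by 0.05 ± 0.04 (adjusted p = 0.746). CFLAR, the decoy that holds caspase-8 back, differed by -0.09 ± 0.05 with both guides (adjusted p = 0.531), but fell by 0.23 ± 0.05 with sg2-IRF2 alone (adjusted p = 0.0065) and was higher by 0.30 ± 0.05 in sg1-IRF2 than in sg2-IRF2 cells (adjusted p = 0.0010). Both CFLAR calls were lost with medians aligned (-0.16 and 0.18, adjusted p = 0.118 and 0.0980) and by voom (adjusted p = 0.0701 and 0.0618). Both were also lost by limma without the mean-variance trend (adjusted p = 0.202 and 0.13). The first was lost by limma with quantile normalization (adjusted p = 0.0678) and in a fit of only the compared groups (0.051). It was lost as well without sg2-IRF2 replicate 1, with a difference of -0.18. DPP8, a peptidase that restrains NLRP1, differed by -0.01 ± 0.05 with both guides (adjusted p = 0.959). Other inflammatory caspases and CARD-only regulators had 0 tested genes, CARD18 the highest of them with 36 reads in all, and GZMA, GZMB, ELANE and CTSG, proteases that cut gasdermins, had no reads.

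**Figure D5:**
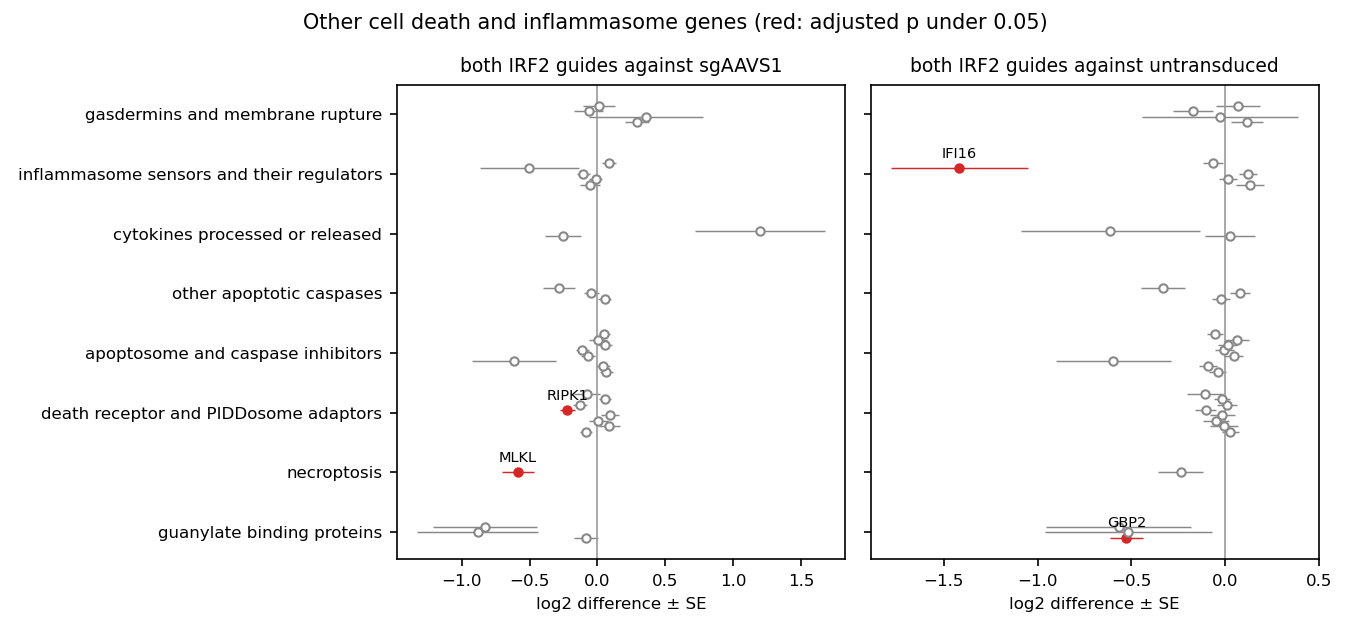
Log2 differences with standard errors of the 34 tested pathway genes by list, both guides against sgAAVS1 (left) and against untransduced cells (right), red where the adjusted p was under 0.05. MLKL and RIPK1 are red on the left only, and IFI16 and GBP2 on the right only.

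The genes nearest to GSDMD in pattern were found by the root mean square difference of the 8 log2 values, each gene centred on its own mean, among the 12499 genes whose log2 values averaged 2 or more. They were TRBV25-1 (0.204), TRBV28 (0.207), SYNJ2BP (0.214), ZNF331 (0.228) and PSME1 (0.238). This is a description with no test. TRBV25-1 and TRBV28 overlap on chromosome 7 and may share reads. Mean log2 values in the control and guide libraries were 3.40 and 2.54 for GSDMD. For SYNJ2BP, a mitochondrial outer membrane protein, they were 5.38 and 4.50, and for PSME1, a subunit of the proteasome activator PA28, 5.39 and 4.30. The same means were 3.29 and 2.67 for TRBV25-1, 3.53 and 2.94 for TRBV28, and 2.56 and 1.89 for ZNF331. Since these genes were chosen for likeness to GSDMD, their lower values in the guide libraries are no separate result.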

How the data were processed

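RNA-seq of 8 K562 libraries was analysed. Per the labels' protocols, total RNA was treated with DNase, depleted of ribosomal RNA and made into libraries with a directional kit. Per the submitters' processing notes, cutadapt, Bowtie2 and hg38 were used. The sources used here do not give versions, the counting tool, its strand setting or the annotation. The authors deposited log2 values of scaled read counts, with 1 scaling factor for each library. After undoing the scaling, all values of genes with reads were whole numbers (100% within 0.01 read), and genes without reads were listed at 0.9 read. Recovered reads served depth, counting intervals (95%, exact, counting error only, since reads are not independent molecules), levels per exonic kb (GENCODE release 29) and the voom alternative.

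Group means of all 8 libraries were fitted with limma 3.58.1 in R 4.3.3 (eBayes with trend, two-sided) to the deposited log2 values of genes with a mean at or above 0. Benjamini-Hochberg adjustment ran over all 14665, with calls at 0.05. Errors of differences are model SEs, and errors of group values SDs of 2 libraries. The fit was tested on simulated data with counting noise only. Those data held no scaling offset or split of libraries, so the test does not bear on either. Comparisons set both guides, or each, against the controls, the guides against each other, and the controls against each other. All share 1 spread estimate, and those with sgAAVS1 share its libraries. The alternatives were other scalings, filters, weights, a replicate block, fewer groups and leaving out each library.

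The 9 genes, 10 pathway lists and 4 marker lists were chosen with earlier results of these data known. Named besides the 9 genes and IRF2 are list genes called in a pooled comparison, the highest gene of each list, and the 5 nearest to GSDMD. CTSG heads its list at no reads. Of the marker lists the highest genes were TFRC, CD68, CD3D and VIM. Python 3.11.15, numpy 2.4.6, pandas 2.3.3, scipy 1.17.1 and matplotlib 3.10.9 were used.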

Additional observations from a re-analysis of the deposited data

Results flagged for a closer look

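The guides to IRF2 differed from each other, by a limma test of that difference, in 3 of the caspase genes. The log2 difference, sg1-IRF2 minus sg2-IRF2, was 0.27 for CASP8, 0.31 for CASP6 and 0.20 for CASP2 (2 libraries each). With library medians aligned it was 0.15, 0.20 and 0.09, and none of the 3 passed the threshold (adjusted p = 0.275, 0.415 and 0.418). The part of the scaling in the result as deposited was not tested further.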

How the results depend on the processing

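With both guides against sgAAVS1, the number of the 7 genes called (1) became 0 with quantile normalization, without the mean-variance trend, under array weights, and in a fit of only the compared groups, where GSDMD had log2 differences of -0.76, -0.81, -0.81 and -0.81 (adjusted p = 0.0541, 0.340, 0.0848 and 0.0622, limma). Leaving out 1 library gave 0 to 1 calls and -0.96 to -0.66 for GSDMD. Against untransduced cells the count (1) was 2 without the filter on low values (GSDMD and CASP4), 0 without the trend and 0 to 1 with a library left out. For sg1-IRF2 against sgAAVS1 the count (1) was 0 without the trend, under array weights and by voom, and 0 to 1 with a library left out. For sg2-IRF2 against sgAAVS1 the count (2) was 0 with quantile normalization, medians aligned, no trend, voom or only the groups compared, 1 with array weights, and 0 to 3 with a library left out. Between the guides the count (3) was 0 with quantile normalization, medians aligned, no trend or voom, and 0 to 4 with a library left out. Between the controls the count (0) was 1 with the filter at a mean of 2 (CASP2), and 0 to 1 with a library left out. Where no value above shows the cause of a change, the cause was not tested.

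The replicate numbers did not pair the libraries across all groups. Same-numbered libraries had deviation correlations from -0.08 to 0.22, over 0.1 in 1 of 6 pairs of groups (sgAAVS1 and sg1-IRF2). For sgAAVS1 with sg1-IRF2, chi-square per degree of freedom was 1.11 and 1.22 in same-numbered pairs and 1.54 and 1.70 in crossed pairs. Whether those same-numbered libraries share a day or culture was not tested. With the number as a replicate block, the count was 0 for sg1-IRF2 against sgAAVS1 (GSDMD -0.96, adjusted p = 0.0551) and 1 for sg2-IRF2 against sgAAVS1 (CASP2). The pooled comparison kept 1 call, with GSDMD at -0.81. Of the other pathway genes, RIPK1 against sgAAVS1 (adjusted p = 0.0514) and IFI16 against untransduced cells (adjusted p = 0.0512) missed the threshold under the block.

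Signs turned in differences that were not called. With both controls averaged, CASP6 was 0.057. For sg1-IRF2 against sgAAVS1, quantile normalization, aligned medians and voom gave -0.017, -0.017 and -0.018 for CASP2, quantile normalization gave -0.0080 for CASP8 and -0.0070 for CASP9, and aligned medians gave -0.0018 for CASP9. For sg2-IRF2 against sgAAVS1 the same 3 scalings gave 0.030, 0.045 and 0.042 for NLRP1. Between the guides they gave -0.030, -0.010 and -0.00090 for PYCARD and -0.0044, -0.017 and -0.011 for NLRP1. With a library left out, the pooled difference from sgAAVS1 ran from -0.16 to 0.10 for CASP6, -0.11 to 0.0023 for CASP9, -0.0074 to 0.21 for PYCARD and -0.041 to 0.070 for NLRP1, and that from untransduced cells from -0.033 to 0.051 for CASP8 and -0.087 to 0.027 for PYCARD. For sg1-IRF2 the ranges were -0.0041 to 0.26 for CASP6, -0.046 to 0.12 for CASP8 and -0.024 to 0.090 for CASP9, and for sg2-IRF2 -0.058 to 0.16 for PYCARD and -0.088 to 0.023 for NLRP1. Between the controls they were -0.28 to 0.069 for GSDMD and -0.10 to 0.013 for CASP9. Depth limits GSDMD, at 24 to 68 reads per library, and leaves CASP1 and CASP4 unmeasured for fold changes against sgAAVS1.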
